A study of Mus musculus with 5 samples.

Results

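The genes described here are 10 that serve acid secretion by intercalated cells, taken by name: the regulator Foxi1, the proton pump subunits Atp6v1b1, Atp6v1c2, Atp6v1g3, Atp6v0a4 and Atp6v0d2, the anion exchangers Slc4a1, Slc26a4 and Slc4a9, and the carbonic anhydrase Car2. All 10 were among the 32793 genes listed in both deposited tables. Bulk RNA was sequenced from kidneys of mouse embryos at embryonic day 15.5. The 2 NICD_mut libraries came from Six2TGC/+, RosaN1ICD∆PEST embryos, in which Cre made under Six2 control in nephron progenitors switches on, from the Rosa26 locus, a Notch1 intracellular domain without its PEST sequence. The 3 NICD_wt libraries carried RosaN1ICD∆PEST alone, without Cre. Six2TGC was present in each NICD_mut library and in no NICD_wt library, so the driver and the activated Notch1 cannot be told apart. The labels do not say whether libraries came from separate animals or from pools, and the spread that the p-values rest on may therefore be technical.

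Intercalated cells are the acid and base secreting cells of the collecting duct, which grows from the ureteric bud, and of the connecting tubule, which forms from nephron progenitors. Carbonic anhydrase II, the product of Car2, turns carbon dioxide and water into bicarbonate and a proton. In type A cells the vacuolar proton pump sends the proton into the urine and Slc4a1 returns the bicarbonate to the blood; type B cells work in the other direction and secrete bicarbonate through Slc26a4. The forkhead factor Foxi1 is required in the mouse for intercalated cells to form. Notch signalling within the collecting duct is known to favour principal cells, the salt and water absorbing neighbours, over intercalated cells.

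In NICD_mut kidneys Foxi1, 4 of the 5 pump subunits, Slc4a9 and Slc26a4 fell, and 6 of these 7 genes were at 0.861 to 3.90% of their NICD_wt level, Slc26a4 at 33.7%. Atp6v0a4 and Car2 rose, 1.53-fold and 1.24-fold, and Slc4a1 did not pass the test. Against these 7 of 10 lower and 2 of 10 higher genes stand 24.8% of all tested genes called lower and 23% called higher in NICD_mut at an adjusted p under 0.05 (Benjamini-Hochberg, edgeR's quasi-likelihood fit of 15885 genes). Of all called genes 48.1% were higher, or 61.3% by limma on log2(TPM + 1). The groups did not overlap for any of the 10 genes, 7 lower and 3 higher, beside 34.2% of all tested genes lower and 32.9% higher without overlap. All 10 passed the filter on low counts, but the 7 that fell passed it only through the NICD_wt libraries, since no more than 1 NICD_mut library reached the limit of 0.491 CPM, counts scaled to library size. The median log2 fold change of the 10 genes was -5.02, and that of all tested genes was 0.01; without NICD_mut 1 the median of the 10 was -4.30.

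**Figure D1:**
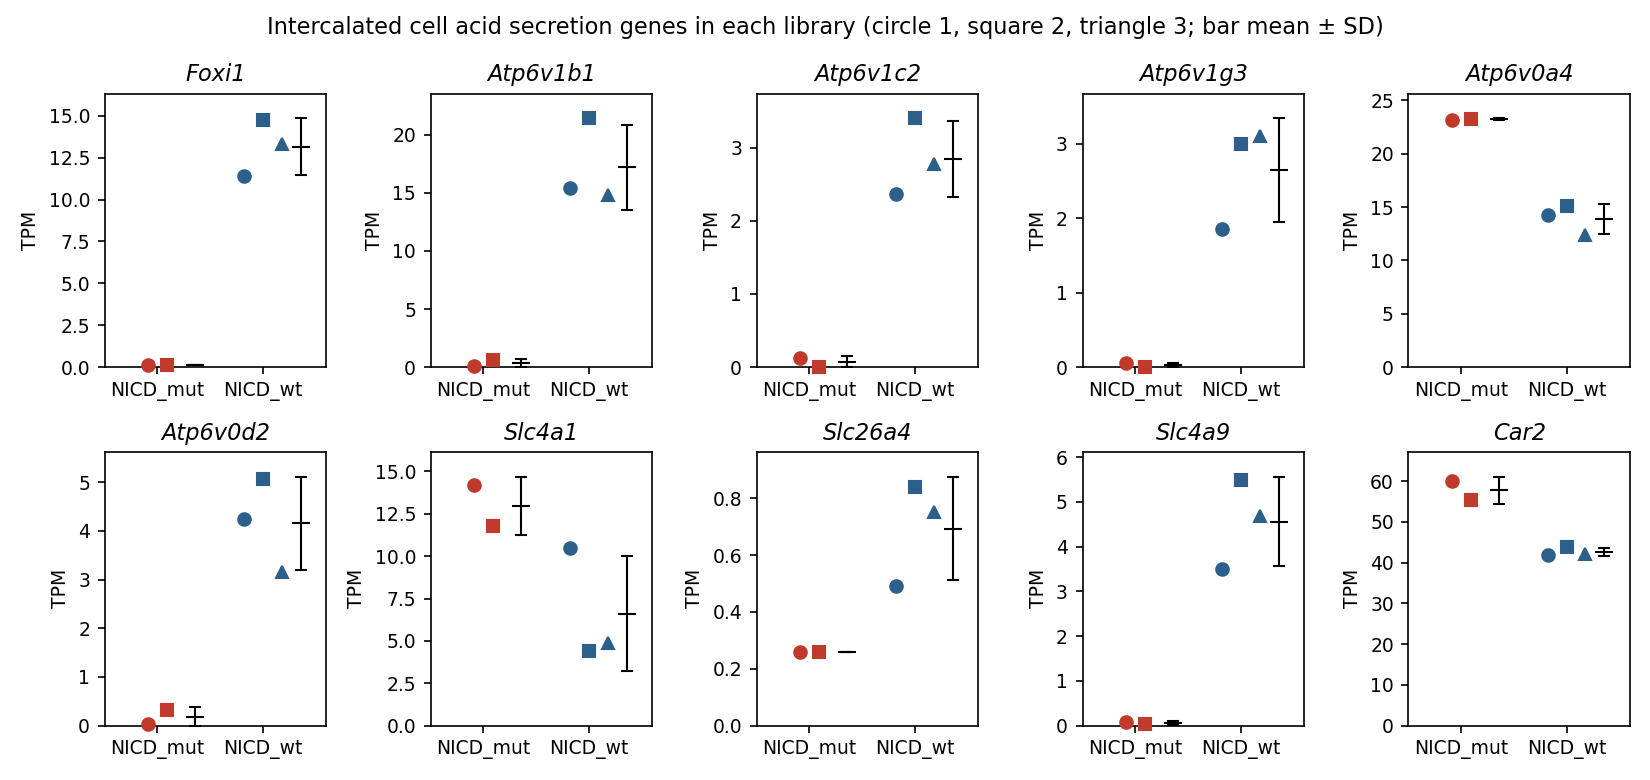
Level of each of the 10 genes in TPM (transcripts scaled for length and depth, y axes starting at 0) in the 2 NICD_mut libraries (red) and the 3 NICD_wt libraries (blue), with the mean and SD beside the points and lower error bars cut at 0. The 7 genes that fell lie at 0 to 0.63 TPM in NICD_mut, while Atp6v0a4, Slc4a1 and Car2 lie above all NICD_wt libraries.

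Total counts ran from 17361823 to 21356447 per library. Notch1 itself, of which the transgene is a part, had 53.8 and 57.5 TPM in NICD_mut against 21.3, 23.5 and 20.1 TPM in NICD_wt. The tubule cadherin Cdh16 was present in every library, at 309 and 331 TPM in NICD_mut and 186 to 224 TPM in NICD_wt. NICD_mut 1 held skeletal muscle transcripts: 8 muscle markers took 0.324% of its counts against 0.00227% in NICD_mut 2, and 0.0150, 0.00196 and 0.00223% in NICD_wt. A fit without either NICD_mut library rests on a single NICD_mut library, which is assumed to vary as the NICD_wt libraries do.

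Foxi1 (chromosome 11, 34204338 to 34208089, minus strand, mm10) was all but undetected in NICD_mut kidneys. Its counts were 3 and 4 in NICD_mut against 308, 427 and 315 in NICD_wt, or 0.12 and 0.15 TPM against 11.4, 14.7 and 13.3 TPM. The NICD_mut level was thus 0.936% of the NICD_wt level, with a 95% counting interval of 0.375 to 1.94%. The log2 fold change was -6.68 (SE 0.27; adjusted p = 7.28e-07 by Benjamini-Hochberg in edgeR's quasi-likelihood fit), and it ran from -6.94 to -6.46 when each library was left out in turn. The paralogs Foxi2 and Foxi3 were at 0 TPM in all 5 libraries. In whole kidneys, fewer intercalated cells and less RNA per cell cannot be told apart, here and for each gene below.

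The pump has a cytoplasmic V1 part, which splits ATP, and a membrane V0 part, which moves the proton. Atp6v1b1 (chromosome 6, 83742990 to 83758855, plus strand) encodes the B subunit isoform of intercalated cells and is mutated in human distal renal tubular acidosis with deafness. It had 3 and 13 counts in NICD_mut kidneys against 332, 492 and 279 counts in NICD_wt, which is 0.14 and 0.63 TPM against 15.4, 21.4 and 14.8 TPM. Every NICD_mut value lay far below every NICD_wt value, at 2.04% of the NICD_wt level (95% counting interval 1.16 to 3.32%). The log2 fold change was -5.57 (SE 0.50; adjusted p = 0.000350 by Benjamini-Hochberg in edgeR's quasi-likelihood fit). It was -7.00 without NICD_mut 2, the library with more of the remaining counts, and -4.85 without NICD_mut 1.

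Atp6v1c2 and Atp6v1g3, the C and G subunit isoforms with narrow tissue distribution, were nearly absent. Atp6v1c2 (chromosome 12, 17284721 to 17329359, minus strand) gave 2 and 0 counts in NICD_mut kidneys against 38, 58 and 41 counts in NICD_wt, a ratio of 2.05% (95% counting interval 0.246 to 7.55%). Atp6v1g3 (chromosome 1, 138273738 to 138289462, plus strand) gave 1 and 0 counts in NICD_mut kidneys against 39, 67 and 57 counts in NICD_wt, a ratio of 0.861% (95% counting interval 0.0217 to 4.87%). With so few NICD_mut counts the fitted changes were imprecise. They were -5.43 (SE 0.75) for Atp6v1c2 and -6.53 (SE 0.76) for Atp6v1g3 (adjusted p = 0.000412 and 0.000162 by Benjamini-Hochberg in edgeR's quasi-likelihood fit). Without NICD_mut 1 the only NICD_mut library left had 0 counts of both, and the fitted values were -8.53 and -8.79; without NICD_mut 2 they were -4.55 and -5.73.

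In the V0 part, Atp6v0d2 fell and Atp6v0a4 rose. Atp6v0d2 (chromosome 4, 19876841 to 19922605, minus strand) encodes a d subunit isoform also known from osteoclasts and macrophages, and had 1 and 9 counts in NICD_mut kidneys against 123, 157 and 80 counts in NICD_wt. Both NICD_mut libraries were far below the lowest NICD_wt library, at 3.90% of its group's level (95% counting interval 1.85 to 7.25%). The log2 fold change was -4.61 (SE 0.65; adjusted p = 0.000987 by Benjamini-Hochberg in edgeR's quasi-likelihood fit), -6.84 without NICD_mut 2 and -3.75 without NICD_mut 1. Of 10 tested osteoclast and macrophage markers 8 rose and 0 fell, with a median of 1.39, and the 12 listed markers summed to 173 and 171 TPM in NICD_mut against 54.9 to 64.9 TPM in NICD_wt. Csf1r, the macrophage growth factor receptor, had 31.5 and 30.3 TPM in NICD_mut against 9.08, 7.86 and 9.43 TPM in NICD_wt. The osteoclast fusion genes Dcstamp and Ocstamp were at 0 to 0.24 TPM in all libraries. The part of these cells in the remaining Atp6v0d2 counts was not tested.

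Atp6v0a4 (chromosome 6, 38048483 to 38124586, minus strand), the a subunit isoform whose loss causes human distal renal tubular acidosis, is also known from the proximal tubule. It had 23.2 and 23.3 TPM in NICD_mut against 14.2, 15.1 and 12.4 TPM in NICD_wt, and was the one pump gene of the 5 that was higher in both NICD_mut libraries than in any NICD_wt library. The log2 fold change was 0.62 (SE 0.10; adjusted p = 0.00120 by Benjamini-Hochberg in edgeR's quasi-likelihood fit), with 0.54 to 0.74 over all 15 alternatives, each past the threshold. Of 9 proximal tubule genes of acid-base handling, 6 rose, 2 fell and 1 did not pass, with a median of 0.53. The sodium bicarbonate cotransporter Slc4a4 rose by 1.89 (SE 0.08), the gluconeogenic enzyme Pck1 by 1.95 (SE 0.13), while the sodium-proton exchanger Slc9a3 changed by -1.71 (SE 0.27). The phosphate transporter Slc34a1 had 187 and 188 TPM in NICD_mut against 79.5, 94.2 and 84.2 TPM in NICD_wt. The part of these genes in the Atp6v0a4 change was not tested.

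Each of the 5 pump genes has a widely expressed paralog that can fill the same place in the pump, so the share of each isoform pair was computed per library from TPM, which corrects for length. Atp6v1b1 made up 0.121 and 0.488% of the summed Atp6v1b1 and Atp6v1b2 TPM in NICD_mut, against 16.7, 20.8 and 15.6% in NICD_wt. Atp6v1c2 made up 0.272 and 0% of its pair with Atp6v1c1 in NICD_mut, against 5.88, 7.18 and 6.91% in NICD_wt. The share of Atp6v0d2 in its pair with Atp6v0d1 was 0.0350 and 0.265% in NICD_mut, against 4.27, 4.97 and 3.22% in NICD_wt. Atp6v1g3 was a minor form in both groups beside Atp6v1g1, at 0.0208 and 0% in NICD_mut and 0.889, 1.39 and 1.61% in NICD_wt. For these 4 pairs the groups did not overlap. The a subunit pair was unlike them, since Atp6v0a4 held 37.6 and 41.2% in NICD_mut and 39.7, 39.0 and 35.9% in NICD_wt, with overlap. Its share was taken beside Atp6v0a1 alone. Other a subunit genes were left out, Atp6v0a2 at 26.1 to 30.3 TPM and Tcirg1 at 15.4 to 21.8 TPM over all libraries. The a share and its overlap therefore hold for this pair only. The exact two-sided permutation test gave p = 0.2 for the B, C, G and d pairs and p = 0.6 for the a pair. It doubles the smaller tail, and in that form 0.2 is the smallest p for 2 against 3 libraries. Adjusted over the 5 pairs these are 0.25 and 0.6, and none passed.

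**Figure D2:**
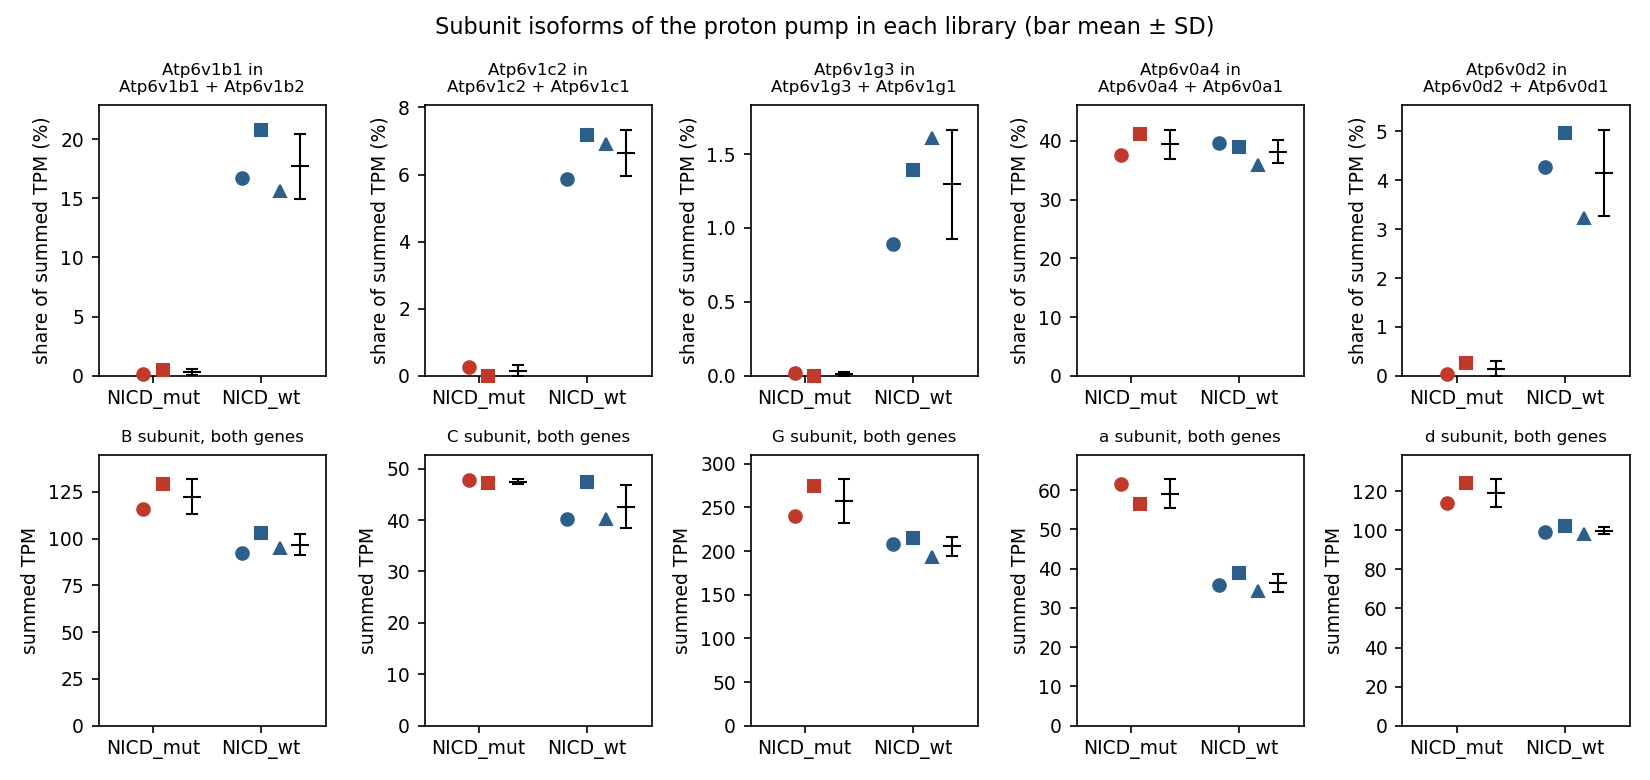
Upper row: share (%) of each intercalated isoform in the summed TPM of the isoform and its paralog; lower row: the summed TPM of both genes; NICD_mut in red, NICD_wt in blue, bars showing mean and SD with lower ends cut at 0. The shares of the B, C, G and d isoforms are under 0.5% in NICD_mut, while the summed B, G, a and d levels in TPM are above those of NICD_wt.

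For the B, G, a and d pairs the summed TPM was higher in both NICD_mut libraries than in any NICD_wt library. Both B subunit genes together had 116 and 129 TPM in NICD_mut against 92.3, 103 and 95 TPM in NICD_wt, and the d pair had 114 and 124 TPM against 99.3, 102 and 98.2 TPM. The G pair had 240 and 275 TPM in NICD_mut and 193 to 215 TPM in NICD_wt, and the a pair 61.7 and 56.5 TPM in NICD_mut and 34.4 to 38.8 TPM in NICD_wt. For the C pair the groups overlapped, with 47.8 and 47.2 TPM in NICD_mut and 40.3, 47.4 and 40.2 TPM in NICD_wt. In counts the d pair had 1940 in NICD_mut 1 and 1960 in NICD_wt 2, libraries of similar total count. For the d pair the order seen in TPM was therefore not kept in counts. These sums were not tested.

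Of 20 other pump subunits and accessory proteins, 19 were tested: 7 rose, 1 fell and 11 did not pass, with a median of 0.13 and a range from -0.23 to 0.57 (8 rose and 0 fell, median 0.24, by limma on log2(TPM + 1), where the median of all genes was 0.11). Atp6v1b2, the widely expressed B isoform, had 116 and 128 TPM in NICD_mut against 76.9, 81.3 and 80.2 TPM in NICD_wt, and its log2 fold change was 0.50 (SE 0.07). Atp6v0a1 rose by 0.55 (SE 0.08) and the accessory protein Atp6ap2, the renin receptor, by 0.57 (SE 0.07); both NICD_mut libraries were above every NICD_wt library for both genes. Atp6v1a, the catalytic A subunit, changed by -0.23 (SE 0.07; adjusted p = 0.0266 by Benjamini-Hochberg in edgeR's quasi-likelihood fit) and was the one gene called lower. Its TPM values overlapped, at 77.6 and 70 in NICD_mut and 75.6, 84.4 and 77.1 in NICD_wt. Atp6v1g1 at 0.23 (SE 0.08) and Atp6v0d1 at 0.20 (SE 0.07) passed in this fit but in 8 and 9 of 15 alternatives, and Atp6v1c1 at 0.13 (SE 0.09) did not pass. The number that rose was 4 without NICD_mut 2 or any one NICD_wt library, and the list median was -0.01 without NICD_mut 2 and 0.25 without NICD_mut 1. The number that fell was 0 without NICD_wt 2 or NICD_wt 3.

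**Figure D3:**
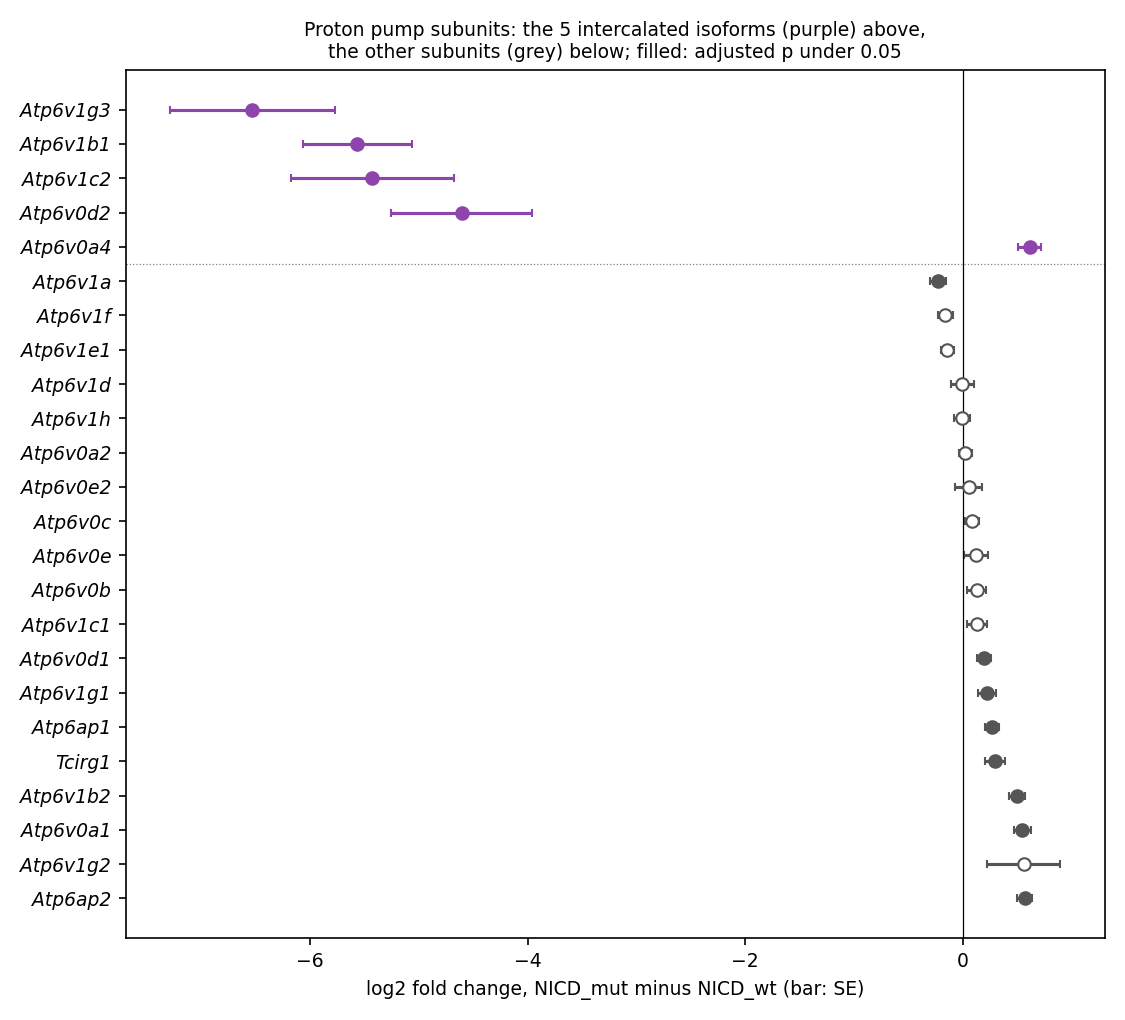
Log2 fold change, NICD_mut minus NICD_wt, with SE, for the 5 intercalated pump isoforms (purple, above the dotted line) and 19 other subunits and accessory proteins (grey); filled points passed the test. Atp6v1g3, Atp6v1b1, Atp6v1c2 and Atp6v0d2 lie between -6.53 and -4.61, while Atp6v0a4 and the other subunits lie between -0.23 and 0.62.

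Promoter sequence was read for 6 of the 10 genes, from RefSeq on GRCm38.p6, as the 250 bases before the transcript start. Foxi1 is a forkhead protein, so the 7 forkhead letters TGTTTAC, allowing A in place of G and T in place of C, were searched on both strands. A match was present in 2 of the 6 promoters, those of Atp6v1b1 and Slc26a4, and in 13.6% of all 32851 promoters of the same length. None was found in these windows of Foxi1, Atp6v1c2, Atp6v1g3 or Atp6v0a4. The following 3 are shown because Atp6v1b1 and Slc26a4 hold a match, in capitals, and Atp6v0a4 is the pump gene that rose. The match is TGTTTAC, 98 to 92 bases before the start, in Atp6v1b1 (chr6:83742767-83743016, plus strand), and ATAAATA, the reverse complement of TATTTAT, 65 to 59 bases before the start in Slc26a4 (chr12:31559985-31560234, minus strand); Atp6v0a4 lies at chr6:38124587-38124836, minus strand. A match of letters does not show binding.
Atp6v1b1: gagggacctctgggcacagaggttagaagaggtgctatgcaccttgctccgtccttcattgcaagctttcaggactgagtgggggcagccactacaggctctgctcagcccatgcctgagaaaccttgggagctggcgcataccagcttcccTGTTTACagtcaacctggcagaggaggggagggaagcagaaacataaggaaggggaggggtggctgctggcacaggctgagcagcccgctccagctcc
Slc26a4: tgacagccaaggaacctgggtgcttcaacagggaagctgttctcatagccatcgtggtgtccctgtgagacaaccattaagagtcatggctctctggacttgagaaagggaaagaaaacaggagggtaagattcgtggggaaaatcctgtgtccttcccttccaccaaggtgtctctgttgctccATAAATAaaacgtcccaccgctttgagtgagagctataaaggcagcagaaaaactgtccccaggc
Atp6v0a4: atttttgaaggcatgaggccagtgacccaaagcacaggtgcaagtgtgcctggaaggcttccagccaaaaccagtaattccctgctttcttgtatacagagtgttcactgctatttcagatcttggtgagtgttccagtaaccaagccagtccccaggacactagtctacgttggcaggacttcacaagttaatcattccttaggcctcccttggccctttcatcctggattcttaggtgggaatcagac

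Of the 3 anion exchangers, Slc4a9 fell most. Slc4a9, an exchanger found in type B intercalated cells of the mouse, had 3 and 1 counts in NICD_mut kidneys against 124, 213 and 149 counts in NICD_wt, or 0.09 and 0.03 TPM against 3.50, 5.49 and 4.69 TPM. The NICD_mut level was 1.16% of the NICD_wt level (95% counting interval 0.314 to 2.98%), with a log2 fold change of -6.34 (SE 0.46; adjusted p = 1.37e-05 by Benjamini-Hochberg in edgeR's quasi-likelihood fit) and of -7.22 without NICD_mut 1 and -5.82 without NICD_mut 2. Slc26a4, or pendrin (chromosome 12, 31519827 to 31559969, minus strand), gave 9 and 9 counts in NICD_mut kidneys against 18, 33 and 24 counts in NICD_wt. It was the lowest of the 10 genes in NICD_wt, at 0.69 ± 0.18 TPM (SD, n = 3), and both NICD_mut libraries had 0.26 TPM. The groups did not overlap, and the log2 fold change was -1.55 (SE 0.51; adjusted p = 0.0333 by Benjamini-Hochberg in edgeR's quasi-likelihood fit). That call was held in 6 of 14 alternatives, with adjusted p from 0.0323 to 0.116 over them; among fits with a library left out it was lost without NICD_mut 1, NICD_mut 2, NICD_wt 2 or NICD_wt 3 (0.116, 0.0996, 0.0920 and 0.0826).

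Slc4a1 (chromosome 11, 102348824 to 102366203, minus strand) encodes band 3, which is made both by type A intercalated cells and, in far larger amounts, by red cells; a count per gene does not separate the kidney and red cell forms. It had 14.2 and 11.8 TPM in NICD_mut against 10.5, 4.39 and 4.89 TPM in NICD_wt. NICD_wt 1 was close to the NICD_mut libraries and over 2-fold above the other NICD_wt libraries. The log2 fold change of 0.85 (SE 0.47) did not pass (adjusted p = 0.225 by Benjamini-Hochberg in edgeR's quasi-likelihood fit). Without NICD_wt 1 it was 1.36 (SE 0.14; adjusted p = 0.000596 by Benjamini-Hochberg in edgeR's quasi-likelihood fit). The other 14 alternatives gave 0.63 to 1.07, none past the threshold.

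Red cell markers were set beside Slc4a1. Of 16 tested red cell markers 8 rose, 0 fell and 8 did not pass, with a median of 1.11, and the markers took 1.03 and 1.14% of counts in NICD_mut kidneys against 0.581, 0.518 and 0.451% in NICD_wt. The rise was called for 5 markers without NICD_wt 3. Alas2, the first enzyme of red cell haem synthesis, had 95.3 and 97.0 TPM in NICD_mut against 47.6, 42.6 and 37.4 TPM in NICD_wt. Rhd, of the Rh blood group complex, had 3.55 and 2.40 TPM in NICD_mut against 2.55, 0.70 and 0.64 TPM in NICD_wt, so NICD_wt 1 stood apart for it as for Slc4a1. For Alas2 and for the marker total NICD_wt 1 was the highest NICD_wt library by a much smaller margin. Slc4a1 had 24.5 and 22.9 counts per 100 counts of 9 red cell markers without globins in NICD_mut, against 35.1, 19.8 and 23.6 in NICD_wt. The groups overlapped in this ratio. Alas2 held most counts of the 9 markers, with 2033 and 2043 in NICD_mut and 1055, 1005 and 722 in NICD_wt, so the ratio is largely Slc4a1 over Alas2. Sptb, also among the 9, had 524 counts in NICD_mut 1 and 248 in NICD_mut 2. Ank1, which skeletal muscle also makes, was left out of the 9 because it had 20.3 TPM in NICD_mut 1 and 0.83 to 2.08 TPM in the other libraries; with it the ratio was 19.7 and 22.0 in NICD_mut against 32.4, 18.9 and 22.6 in NICD_wt. The ratio and both marker choices were made after the values were seen, and the part of red cells in the Slc4a1 level was not tested.

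**Figure D4:**
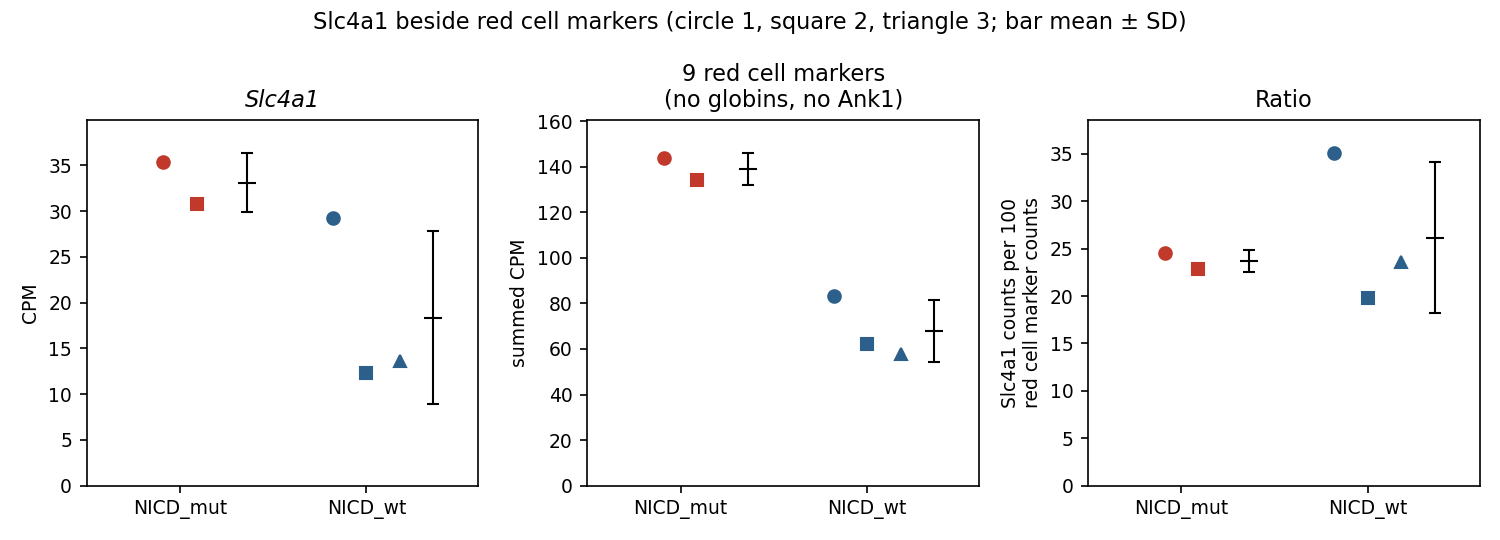
Left: Slc4a1 in CPM; middle: summed CPM of 9 red cell markers other than globins and Ank1; right: Slc4a1 counts per 100 counts of those markers; NICD_mut in red, NICD_wt in blue, bars showing mean and SD. Slc4a1 and the marker sum are higher in both NICD_mut libraries than in any NICD_wt library, and the ratio of 24.5 and 22.9 in NICD_mut lies within the NICD_wt range of 19.8 to 35.1.

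Car2 (chromosome 3, 14886273 to 14900770, plus strand), also made in red cells and other tubule segments, was the most abundant of the 10 genes per length in every library. It had 60.1 and 55.5 TPM in NICD_mut against 41.9, 43.9 and 42.1 TPM in NICD_wt, without overlap. The log2 fold change was 0.32 (SE 0.07; adjusted p = 0.00680 by Benjamini-Hochberg in edgeR's quasi-likelihood fit), and 0.28 to 0.44 over 15 alternatives. With replicate number as a block it was 0.31 and did not pass (adjusted p = 0.0512 by Benjamini-Hochberg in edgeR's quasi-likelihood fit). Of the markers given above, 8 of 16 red cell genes and 6 of 9 proximal tubule genes rose as Car2 did, and their part in its change was not tested. Car1, the other main red cell carbonic anhydrase, was at 0.08 to 0.29 TPM in all libraries. Of 12 tested carbonic anhydrases other than Car2, 6 rose, 2 fell and 4 did not pass, with a median of 0.60, or 0.35 without NICD_mut 1. Car12, a membrane form, had 52.6 and 53.5 TPM in NICD_mut against 19.5, 20.9 and 19.9 TPM in NICD_wt, Car13 rose by 1.38 (SE 0.16) and Car10 by 4.18 (SE 0.38). Car15, a membrane form of the mouse kidney, had 1.41 and 0.97 TPM in NICD_mut against 5.63, 5.66 and 6.69 TPM in NICD_wt. Car3, a muscle form, had 101 TPM in NICD_mut 1 and 4.28 TPM in NICD_mut 2, against 10.7 to 13.4 TPM in NICD_wt, and did not pass (2.01, SE 1.39).

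Other members of both exchanger families went each way. Of 7 tested SLC4 transporters outside the 10 genes, 2 rose and 4 fell, with a median of -0.63; 1 rose when NICD_mut 1 or any one NICD_wt library was left out, and the median was -0.265 without NICD_mut 2. Slc4a8 changed by -1.81 (SE 0.19) and Slc4a5 by -3.96 (SE 0.51). Slc4a2, a widely expressed chloride-bicarbonate exchanger, had 44.1 and 45.0 TPM in NICD_mut and 36.5, 41.6 and 38.9 TPM in NICD_wt and did not pass (0.06, SE 0.07). Of 7 tested SLC26 exchangers, 3 rose and 1 fell, with a median of 0.09, and 0 fell without NICD_mut 2, where the median was -0.04; it was 0.03 to 0.21 with any other library left out. Slc26a7, a chloride-bicarbonate exchanger known from type A cells of the outer medulla, had 44.5 and 62.2 TPM in NICD_mut against 7.99, 6.03 and 6.39 TPM in NICD_wt, a change of 2.85 (SE 0.20), and the sulfate transporter Slc26a1 rose by 2.30 (SE 0.12). Slc26a9 changed by -2.98 (SE 0.83).

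Of 18 other genes known from intercalated cells, 17 were tested: 9 fell, 4 rose and 4 did not pass, with a median of -1.80, the same with a gene at 0 in NICD_mut set at its bound. Bsnd, which encodes barttin, had 2 and 0 counts in NICD_mut kidneys against 363, 445 and 291 in NICD_wt, a ratio of 0.255% (95% counting interval 0.0309 to 0.925%). Bsnd is also expressed in the thick ascending limb and distal tubule, whose markers were lower as well: of 11 tested distal markers 9 fell and 0 rose, with a median of -5.07. The calcium-binding protein Calb1 had 0.19 and 0.19 TPM in NICD_mut against 94.7, 94.7 and 95.5 TPM in NICD_wt. The ammonia channel Rhcg had 9 and 27 counts in NICD_mut kidneys against 459, 657 and 456 in NICD_wt. Oxgr1, the ketoglutarate receptor of type B cells, had 0 counts in NICD_mut kidneys against 42, 72 and 45 in NICD_wt, at least 37.8-fold lower, with the floor of 3 counts taken over the group. Car12, Slc26a7, Slc26a11 and Kcnma1 rose, and 2 of the list rose without NICD_wt 3. The list median was -1.05 without NICD_mut 2.

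Transcripts listed as markers of the epithelium that holds intercalated cells were present in both groups, though most of these markers were lower in NICD_mut. The 16 ureteric epithelium markers summed to 1200 and 1030 TPM in NICD_mut and 1030, 1130 and 1060 TPM in NICD_wt. Of these 10 fell, 2 rose and 4 did not pass, with a median of -0.85; the keratin Krt8 had 349 and 267 TPM in NICD_mut against 160, 166 and 183 TPM in NICD_wt, whereas the ureteric Wnt ligands Wnt9b and Wnt11 changed by -3.38 (SE 0.17) and -1.80 (SE 0.09). Without NICD_mut 2, 4 of the markers rose. Of the markers that fell, Ret was at 5.72% and Pax2 at 25.1% of the NICD_wt level. Krt8 and Cdh16, the 2 that rose, are a large part of the sum. Cdh16 is found in nephron tubules too, so neither the sum nor the counts of these markers are a measure of collecting duct alone. How far the other markers, Pax2 among them, are made outside the collecting duct was not tested. Per 1000 TPM of these markers, Foxi1 had 0.1 and 0.146 TPM in NICD_mut against 11, 13.1 and 12.5 TPM in NICD_wt, a ratio chosen after the values were seen.

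Principal cell markers also fell, in 10 of 12 cases with 0 higher, at a median of -1.68. The sodium channel subunit Scnn1b had 12.7 and 13.8 TPM in NICD_mut against 32.3, 33.9 and 30.0 TPM in NICD_wt, Scnn1g changed by -1.78 (SE 0.16) and the potassium channel Kcnj1, also of the thick limb, had 5 and 0 counts in NICD_mut kidneys against 431, 530 and 374 in NICD_wt. The difference between the principal and the intercalated genes was not tested. Of 8 collecting duct regulators, 5 fell and 3 did not pass. Among these, Hoxb7, Gata3 and Tfcp2l1 are also counted above as ureteric markers and Elf5 as a principal cell marker. Hoxb7 changed by -1.21 (SE 0.09), Gata3 by -1.51 (SE 0.12) and Elf5, a factor of principal cells, by -2.48 (SE 0.28). Tfcp2l1, required in the mouse for intercalated and principal cells to separate, had 29.2 and 33.7 TPM in NICD_mut against 47.8, 54.7 and 46.2 TPM in NICD_wt. The Notch ligand Jag1 had 54.9 and 75.1 TPM in NICD_mut against 44.1, 45.0 and 43.6 TPM in NICD_wt and did not pass (0.44, SE 0.15).

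**Figure D5:**
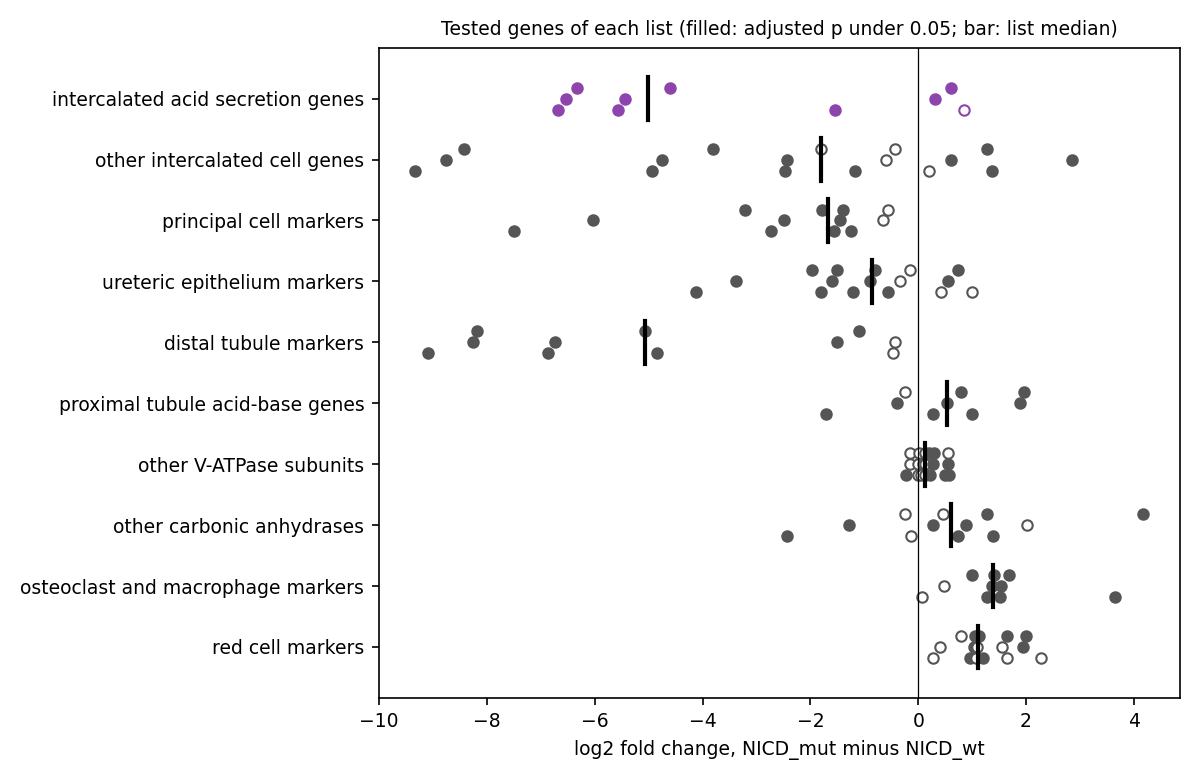
Log2 fold change, NICD_mut minus NICD_wt, of each tested gene of the 10 intercalated acid secretion genes (purple) and 9 other lists (grey), with list medians as black bars; filled points passed the test. The 10 genes have a median of -5.02 (-4.30 without NICD_mut 1) and the distal tubule markers -5.07, against -1.68 for principal cell markers and 0.13 for the other pump subunits.

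Levels of the genes that fell also differed among the NICD_wt libraries. NICD_wt 2 was the highest of the 3 in CPM for 6 of these 7 genes, and NICD_wt 1 the lowest for 5 of 7. Their summed TPM was 0.83 and 1.40 in NICD_mut against 39.2, 53.9 and 42.7 in NICD_wt. By mean TPM the order in NICD_wt was Car2, Atp6v1b1, Atp6v0a4, Foxi1, Slc4a1, Slc4a9, Atp6v0d2, Atp6v1c2, Atp6v1g3 and Slc26a4, and neighbours overlapped except Car2 with Atp6v1b1, Foxi1 with Slc4a1, and Atp6v1g3 with Slc26a4. In NICD_mut the order was Car2, Atp6v0a4 and Slc4a1 without overlap, followed by the other 7 genes, all overlapping their neighbours.

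The tested genes nearest to Foxi1 were found by Euclidean distance over the 5 libraries in log2 CPM centred on each gene's mean. A small count was added before the log, and it largely sets the NICD_mut value of genes with few counts there. Distances among such genes therefore do not reflect how far each fell. They were Defb1 (0.372), Tmem213 (0.564), Slc12a3 (0.703), Tmem52b (0.785) and Kng2 (0.852). Defb1 had 0 counts in NICD_mut kidneys against 140, 191 and 118 in NICD_wt, at least 107-fold lower with the floor of 3 counts taken over the group. Tmem213 had 3 and 4 counts in NICD_mut kidneys against 245, 307 and 203 in NICD_wt, and Tmem52b 39 and 28 against 1494, 1880 and 1250. Slc12a3 and Kng2 had 1 and 0 counts each in NICD_mut, against 132, 248 and 139 for Slc12a3 and 104, 157 and 86 for Kng2 in NICD_wt. Of the 10 genes, Slc4a9 at 1.01 and Atp6v1b1 at 1.18 were nearest to Foxi1, ranked 7 and 11 of all tested genes, while Slc26a4 ranked 437.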

How the data were processed

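RNA of 2 NICD_mut and 3 NICD_wt kidney libraries was measured. The authors deposited estimated counts per gene symbol, whole numbers as given, and TPM, scaled for gene length and library depth. Per the submitters' processing notes, RSEM, Bowtie2 and mm10 were used; the sources used here do not give versions, annotation or strandedness, and RSEM divides reads shared by near-identical genes. Columns were matched to samples by name. Genes were kept by filterByExpr (minimum count 10, total 15), scaled by TMM and tested with edgeR 4.0.16 (quasi-likelihood, robust) in R 4.3.3 without covariates, with p-values adjusted over 15885 genes by the Benjamini-Hochberg method. Log2 fold changes are NICD_mut minus NICD_wt. Counting intervals are exact Clopper-Pearson at 95%; they and floors of 3 counts cover counting error only. Levels are the deposited TPM. Coordinates are from GENCODE on mm10. Members and lists were chosen with earlier results of these data known. Some genes, such as Car12 and Slc26a7, stand in several lists, so the lists are not independent. Named genes were the members, their paralogs, up to 3 genes per list with the smallest adjusted p, any gene alone against its list, and the 5 nearest to Foxi1; other named genes were chosen after their values were seen. The edgeR fit was tested on simulated data, in which far fewer genes were changed than were called here. It missed most of the smallest changes there and made more false calls than the adjusted p threshold allows. False calls were not split by size of change, so any call here may be less certain than its adjusted p. The share of false calls in the real data is not known. Alternatives were DESeq2 1.42.0, limma 3.58.1 (voom, and log2 TPM with pseudocounts 1 and 0.1), other scalings and filters, a replicate block, and each library left out. No replicate pair was identical. A few genes of the lists are counted but not reported here by name.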

Additional observations from a re-analysis of the deposited data

How the results depend on the processing

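The number of these 10 genes that fell was 5 to 7 and the number that rose 1 to 3 over all alternatives; the stricter filter (50 counts in 2 samples) left out Atp6v1c2 and Slc26a4. None of the 10 genes changed direction, and Foxi1, Atp6v1b1, Atp6v1c2, Atp6v1g3, Atp6v0d2, Slc4a9 and Atp6v0a4 passed in every alternative that tested them. With libraries left out in turn, 6 to 7 of the 10 fell and 2 to 3 rose, 8 to 10 other intercalated cell genes fell and 2 to 4 rose, and 0 to 1 other pump subunits fell and 4 to 9 rose. Slc26a4 was -1.48 by limma-voom, -0.42 and -1.11 by limma on log2(TPM + 1) and log2(TPM + 0.1), none past the threshold (limma, Benjamini-Hochberg adjusted p = 0.0506, 0.0633 and 0.0520). Other pump subunits that fell numbered 0 by both TPM fits and with the replicate block. The TPM fits moved the median of all genes to 0.11 and 0.13 (log2) and the share of called genes that were higher to 61.3 and 60.9%, against 48.1%. The labels do not say that replicate numbers pair libraries, and only 2 numbers are shared. Deviations from group means correlated across genes at 0.34 and 0.149 for libraries of the same number. The correlation was 0.234 for NICD_mut 2 with NICD_wt 3. The deviations of the 2 NICD_mut libraries are mirror images, so each value recurs with opposite sign, and these correlations cannot show a pairing. With replicate number as a block 1 of the 10 genes rose and 6 fell, 2 other intercalated cell genes and 4 other pump subunits rose, and Car2, at 0.31, did not pass (adjusted p = 0.0512 by Benjamini-Hochberg in edgeR's quasi-likelihood fit). Taken from counts, which do not correct for length, the isoform share differences were -12.4 points for Atp6v1b1, -4.58 for Atp6v1c2, -2.48 for Atp6v1g3 and -6.45 for Atp6v0d2, against -17.4, -6.52, -1.29 and -4.00 from TPM. That of Atp6v0a4 was 1.23 points from TPM and -0.58 to 3.05 with a library left out. For the other 4 the range was -18.5 to -15.8, -6.91 to -6.26, -1.49 to -1.13 and -4.47 to -3.59 in the order given. At this depth genes with under 5 counts in NICD_mut have ratios known no more closely than their counting intervals, which leave out spread between libraries. The causes of these shifts were not tested.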
